A study of Homo sapiens with 8 samples.

Results

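Tumour necrosis factor, the lymphotoxins, their receptors and the adaptors that those receptors recruit were followed in TRAIL-resistant and TRAIL-sensitive Jurkat cells. The set holds 10 named genes: the ligands TNF, LTA and LTB, the receptors TNFRSF1A, TNFRSF25, TNFRSF21 and LTBR, and the receptor-bound proteins TRADD, RIPK1 and TRAF2. They were picked by name, and every probe annotated with one of these symbols, current or older, was taken. Of the 10 genes, 8 had a probe, which gave 9 of the 22184 probes on the array, because TRADD had 2. No probe was annotated to RIPK1 or TRAF2, and they were not analysed here. A probe entered the test if 1 or more of the lines had it detected on both arrays, that is, with a detection p-value (the test of a signal against background) under 0.05. That held for 7 of the 9 probes, which stand for 6 of the 10 genes, and for 13130 of all 22184 probes, which stand for 10681 named genes. TNF and LTBR did not pass.

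Jurkat is a human T cell leukaemia line that TRAIL, a death ligand of the same protein family as TNF, can drive into apoptosis. The clones TR1, TR2 and TR3 are TRAIL-resistant subclones obtained by growing Jurkat cells under 1000 ng/mL TRAIL for 12 weeks, and WT is the untreated, TRAIL-sensitive parental line. All 4 lines were grown in IMDM with fetal bovine serum, penicillin and streptomycin, with no further treatment, and each was hybridised to 2 Illumina HumanRef-8 BeadChips from RNA that the labels call biological duplicates. Each clone is a single subclone, and no subclone grown without TRAIL was profiled, so resistance, subcloning and time in culture cannot be told apart.

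TNF and lymphotoxin alpha bind the receptor TNFRSF1A, whose death domain recruits TRADD, RIPK1 and TRAF2. This receptor complex mostly switches on NF-kB and the survival genes under it, and turns to caspases or to necroptosis when that branch is blocked. Lymphotoxin beta stays in the membrane, joins lymphotoxin alpha in a mixed trimer on the surface of T cells, B cells and other lymphocytes, and signals to LTBR on stromal cells, dendritic cells and macrophages to build lymphoid tissue. The genes TNF, LTA and LTB lie side by side within the major histocompatibility complex, and all are known as genes that NF-kB can switch on in lymphocytes.

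The start regions of the neighbouring genes LTB and TNF are shown because they belong to the one gene of the set that differed between the lines and to the ligand beside it that was not detected. Each run holds the 250 bases before the transcription start, read 5′ to 3′ along the gene's own strand, from RefSeq on GRCh38.p14. LTB lies at chr6:31582426-31582675 on the minus strand, and its capitals mark a match to the NF-kB consensus. TNF lies at chr6:31575315-31575564 on the plus strand, and its capitals mark TATAAA.
LTB: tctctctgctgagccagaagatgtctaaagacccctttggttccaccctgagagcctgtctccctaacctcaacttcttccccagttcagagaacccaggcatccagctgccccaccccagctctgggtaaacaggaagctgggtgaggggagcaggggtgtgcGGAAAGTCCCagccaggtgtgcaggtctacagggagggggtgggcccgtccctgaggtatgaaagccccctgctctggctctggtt
TNF: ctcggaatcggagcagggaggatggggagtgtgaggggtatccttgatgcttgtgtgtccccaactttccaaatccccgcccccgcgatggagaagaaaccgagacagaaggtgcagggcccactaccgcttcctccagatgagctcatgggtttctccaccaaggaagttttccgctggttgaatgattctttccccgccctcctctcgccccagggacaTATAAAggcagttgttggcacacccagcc
The motifs TATAAA and TGANTCA (the AP-1 site) and the NF-kB consensus were searched on both strands of the same window before every annotated start, 35116 windows in all, of which 13 belong to 9 of the 10 genes. The LTB match GGAAAGTCCC, which fits the consensus when read on the opposite strand, ends 76 bases before the start shown. A second annotated LTB start, 1 base away, has the same match. One LTA window held the NF-kB consensus as the overlapping matches GGGGGCTTCC and GGGGCTTCCC, 94 and 93 bases before the start. Among all windows, 2417 (6.88%) held the NF-kB consensus. TATAAA ended 23 bases before the start in TNF, 25 in LTA and 24 in RIPK1, and was present in 3763 windows (10.7%). TGANTCA was found in 2308 windows (6.57%) and in none of the set's. These are letter matches, and whether a factor was bound there was not measured.

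Of the 2 ligands tested, LTA and LTB, only LTB gave a difference that passed the test. Its mRNA signal rose in TR1, at 2.04 times that of WT after background correction and quantile normalisation. The signal in TR2 and TR3 lay well below that of TR1. The TR1 fold was smaller without background correction, with a log2 difference from WT of 0.68. The raw LTB intensity, on the scanner's linear scale, was 132.3 and 156.3 on the TR1 arrays, 88.4 and 81.3 on the TR2 arrays, 91.2 and 81.5 on the TR3 arrays, and 102.6 and 82.3 on the WT arrays (probe ILMN_1737043). Both TR1 arrays were above all others, while the raw values of TR2, TR3 and WT overlapped. In RNA from whole cultures, more LTB mRNA per cell and more cells with LTB mRNA cannot be told apart. The probe was detected on all 8 arrays.

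After background correction and quantile normalisation, the LTB level on the log2 scale was 6.61 and 7.04 in TR1, 5.37 and 5.23 in TR2, 5.49 and 5.24 in TR3, and 5.93 and 5.65 in WT. On this scale the TR1 arrays lay above, and the TR2 and TR3 arrays below, both WT arrays. The share of all probes separated in this way, on either scale, is not given. The line means were 6.82 ± 0.30 in TR1, 5.30 ± 0.10 in TR2, 5.37 ± 0.17 in TR3 and 5.79 ± 0.20 in WT (SD, n = 2 arrays each). From high to low the order was therefore TR1, WT, TR3, TR2.

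**Figure D1:**
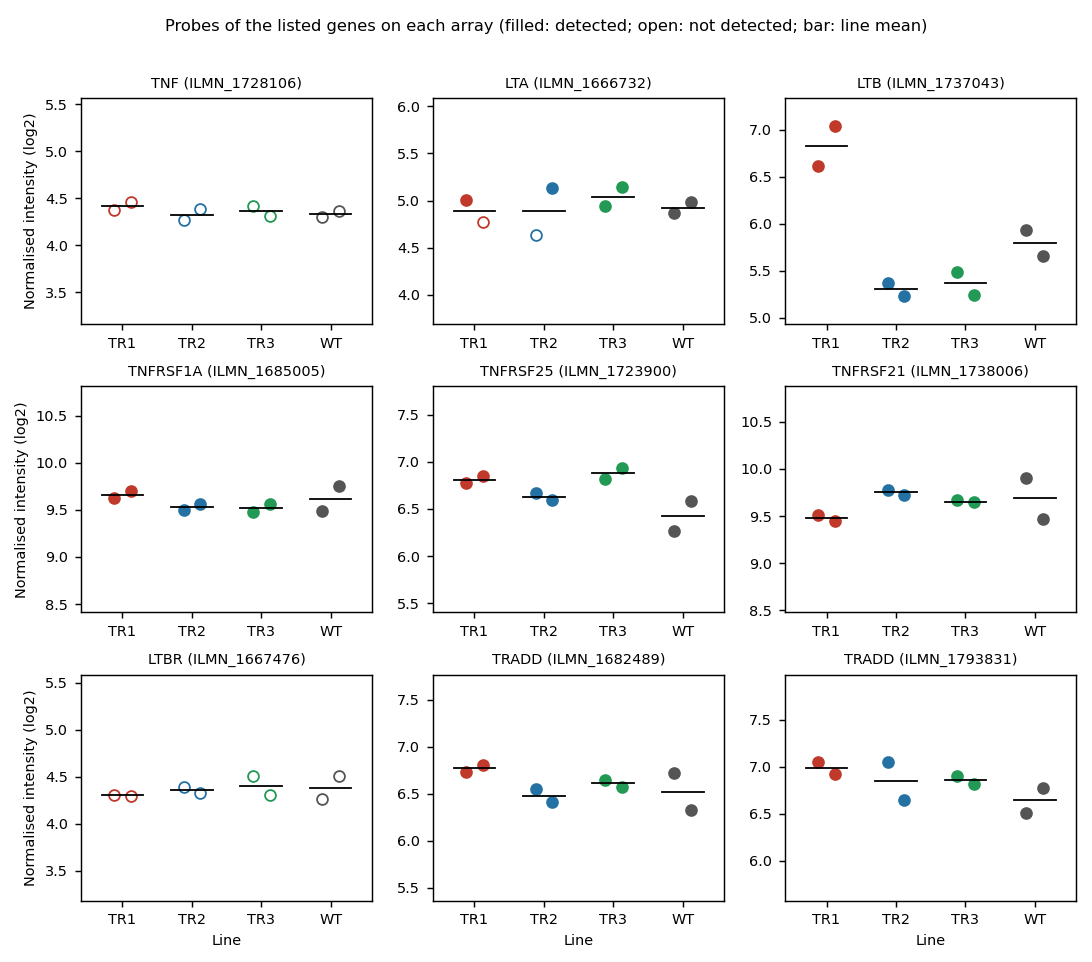
Normalised intensity (log2) of the 9 probes on each array, with 1 panel a probe, the lines TR1, TR2, TR3 and WT on the horizontal axis, a bar for each line's mean, filled points for arrays where the probe was detected and open points where it was not. LTB runs from 5.23 to 7.04 with both TR1 points on top, while TNF (4.27 to 4.46) and LTBR (4.26 to 4.51) are open on all 8 arrays.

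TR1 exceeded WT by 1.03 ± 0.16 (log2 difference ± SE, 95% interval 0.67 to 1.40), with an adjusted p of 0.0112 by limma with Benjamini-Hochberg adjustment over all 13130 probes. LTB ranked at place 119 of these probes by p. Without background correction the TR1 difference was 0.68, with an adjusted p of 0.00825. The call did not survive without TR1 array B (0.82, adjusted p = 0.0755), without WT array B (0.89, adjusted p = 0.0963) or with no filter on dim probes (1.03, adjusted p = 0.0507).

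LTB differed from WT by -0.49 ± 0.16 in TR2 (95% interval -0.86 to -0.13) and by -0.43 ± 0.16 in TR3 (-0.79 to -0.06). Neither value passed, with adjusted p of 0.279 and 0.448 by limma and unadjusted p of 0.0136 and 0.0263. Because the clones lay on either side of WT, the mean of the clones differed from WT by only 0.04 ± 0.13 (adjusted p = 0.935).

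Set against TR1, LTB was lower in TR2, with a log2 difference of -1.52 ± 0.16 or 0.348 times the TR1 signal (adjusted p = 6e-04). It was also lower in TR3, by -1.46 ± 0.16 or 0.364 times (adjusted p = 0.00226). The size depends on the background correction. Without that step the log2 difference from TR1 was smaller, at -0.95 in TR2 and -0.91 in TR3. TR3 and TR2 differed by 0.06 ± 0.16 (95% interval -0.30 to 0.43, adjusted p = 0.94). The moderated F test over the 3 clones gave an adjusted p of 0.000952. The differences of TR2 and TR3 from TR1 passed under each of 15 alternative settings, with an adjusted p of at most 0.0101 for TR2 and 0.0265 for TR3.

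The other lymphotoxin, LTA, which is secreted on its own or held at the cell surface by lymphotoxin beta, was near the detection limit in every line. Its raw intensity was 72.3 and 62.8 in TR1, 69.2 and 78.7 in TR2, 75.2 and 78.6 in TR3, and 71.0 and 63.0 in WT (probe ILMN_1666732). The probe was detected on both arrays of TR3 and WT and on 1 of 2 arrays of TR1 and of TR2, and the lines overlapped. LTA lay -0.04, -0.04 and 0.12 log2 units from WT in TR1, TR2 and TR3 (SE 0.17 for each), with adjusted p of 0.933, 0.95 and 0.869. The 95% interval in TR1 ran from -0.41 to 0.34.

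TNF, the founding ligand of the family, was not detected on any of the 8 arrays. Its raw intensity was 57.9 and 55.9 in TR1, 55.9 and 59.9 in TR2, 61.8 and 55.8 in TR3, and 55.3 and 48.6 in WT (probe ILMN_1728106), with detection p-values from 0.264 to 0.772. These signals give no level and no fold for TNF, and TNF mRNA below what the probe can read would not have been seen.

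Among the receptors, TNFRSF1A, the main receptor for TNF on most cells, had raw intensities of 785.5 and 801.6 in TR1, 791.6 and 751.2 in TR2, 830.2 and 860.2 in TR3, and 779.9 and 868.0 in WT (probe ILMN_1685005). The 2 WT arrays enclosed all but 1 of the clone values. Its log2 difference from WT was 0.04 in TR1, -0.09 in TR2 and -0.10 in TR3 (each ± 0.12 SE), with adjusted p of 0.899, 0.81 and 0.831 by limma. The 95% intervals ran from -0.22 to 0.30 in TR1, from -0.35 to 0.17 in TR2 and from -0.36 to 0.16 in TR3.

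TNFRSF25, the death receptor DR3 of T cells, which binds the ligand TNFSF15 (TL1A) and costimulates, showed higher values on all 6 clone arrays than on both WT arrays. The share of all probes that were separated in this way is not given here. The raw intensity was 144.7 and 142.2 in TR1, 151.6 and 136.1 in TR2, 166.8 and 174.2 in TR3, and 118.9 and 128.0 in WT (probe ILMN_1723900). The normalised log2 level was 6.77 and 6.85 in TR1, 6.67 and 6.59 in TR2, 6.82 and 6.94 in TR3, and 6.26 and 6.59 in WT, so that the lowest TR2 array and the upper WT array nearly met. The difference from WT was 0.39 ± 0.13 in TR1, 0.20 ± 0.13 in TR2 and 0.45 ± 0.13 in TR3, and none passed (adjusted p = 0.176, 0.579 and 0.282 by limma). The mean of the 3 clones differed from WT by 0.35 ± 0.10, with an unadjusted p of 0.00755 and an adjusted p of 0.26 by limma. For this mean, 11.1% of all genes had an unadjusted p under 0.05. Its SE and p rest on the spread between duplicate arrays, not between clones. The TNFRSF25 probe gave no call under any of the alternatives, and its lowest adjusted p there was 0.0578 in TR1 and 0.0615 in TR3.

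TNFRSF21, the death receptor DR6, known for its part in axon pruning and in holding back T helper responses in mice, gave no call. Its raw intensity was 729.5 and 675.8 in TR1, 958.8 and 838.7 in TR2, 940.0 and 900.9 in TR3, and 1026.8 and 724.7 in WT (probe ILMN_1738006). The WT duplicates lay farther apart than those of any clone, and all clone values but 1 lay between them. The log2 difference from WT was -0.20 in TR1, 0.07 in TR2 and -0.03 in TR3 (SE 0.14 for each), with adjusted p of 0.512, 0.89 and 0.964. TR2 exceeded TR1 by 0.27 ± 0.14 (adjusted p = 0.359), which did not pass.

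LTBR, the receptor for membrane lymphotoxin, was not detected on any array. Its raw intensity was 54.8 and 50.1 in TR1, 62.1 and 57.7 in TR2, 64.7 and 55.3 in TR3, and 53.3 and 52.7 in WT (probe ILMN_1667476), with detection p-values from 0.196 to 0.815. No line stood apart from background at this probe, so that LTBR, like TNF, was left out of the test.

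TRADD, the death domain adaptor that links TNFRSF1A and TNFRSF25 to TRAF2 and RIPK1, was read by 2 probes. The first, ILMN_1793831, had raw intensities of 164.4 and 147.4 in TR1, 184.7 and 139.5 in TR2, 172.8 and 162.5 in TR3, and 132.7 and 140.9 in WT. The second, ILMN_1682489, had 141.8 and 138.7 in TR1, 142.8 and 125.8 in TR2, 152.4 and 145.0 in TR3, and 147.3 and 113.0 in WT. Both probes were detected on all 8 arrays.

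The first TRADD probe differed from WT by 0.34 in TR1, 0.20 in TR2 and 0.22 in TR3 (log2, SE 0.15 for each), with adjusted p of 0.3, 0.639 and 0.673 by limma. The second differed by 0.25, -0.04 and 0.09 (each ± 0.14 SE), with adjusted p of 0.414, 0.93 and 0.876. The probes disagreed in sign in TR2, where neither difference exceeded 1.5 times its SE.

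**Figure D2:**
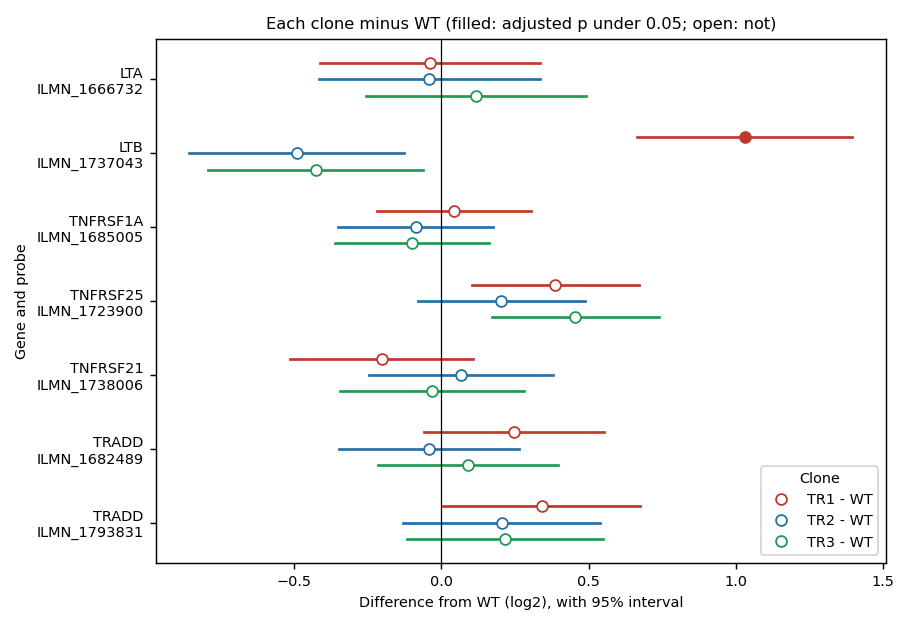
Log2 difference of each clone from WT for the 7 tested probes, with 95% intervals on the horizontal axis and the clones TR1, TR2 and TR3 from top to bottom within a probe. The filled point, LTB in TR1 at 1.03, is the single one with an adjusted p under 0.05, and the intervals of TNFRSF1A, TNFRSF21 and LTA all cross 0.

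Counted over the 6 tested genes, with TRADD represented by its brighter probe, 1 was higher in TR1 than in WT, where 0.59% of all 10681 tested genes were higher and 2.36% were called in either direction. No tested gene of the set was called in TR2 or TR3, where 0.646% and 0.318% of all genes were called, nor for the mean of the clones (0.421%). At an unadjusted p under 0.05 the limma fit gave 3 of the 6 genes in TR1, 1 in TR2, 2 in TR3 and 1 for the mean of the clones, where 16.2%, 11.5%, 9.81% and 11.1% of all genes reached that. With so few genes these counts are a description only. The median log2 difference of the 6 genes was 0.19 in TR1, 0.01 in TR2 and 0.04 in TR3, against 0.01, -0.002 and 0.004 over all tested genes. All of these comparisons share the WT arrays.

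Between clones, 1 of the 6 genes, LTB, was lower in TR2 than in TR1 (1.75% of all genes were lower) and lower in TR3 than in TR1 (0.487%). None was called in TR3 against TR2 (0.843% of all genes), and 0 had an unadjusted p under 0.05 there. The F test among the clones called 1 of 6 (3.89% of all genes).

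The genes around LTB on chromosome 6 were compared in the same way. Of the 10 protein-coding genes on each side, LTA and TNF among them, 17 of 20 passed the filter, and 0 were called in TR1, TR2 or TR3 by limma, with 2, 1 and 0 at an unadjusted p under 0.05. Over all genes 2.36%, 0.646% and 0.318% were called and 16.2%, 11.5% and 9.81% had such a p, so 0 calls among 17 genes lies near the share over all genes. The log2 differences of the 17 from WT ran from -0.26 to 0.39 in TR1, from -0.25 to 0.31 in TR2 and from -0.27 to 0.15 in TR3, and their lowest adjusted p was 0.176, 0.371 and 0.602. The upper end in TR1 was NFKBIL1, an I-kappa-B-like gene next to LTA, at 0.39 ± 0.13. LST1, on the other side of LTB, lay at 0.19 ± 0.17 in TR1, -0.06 ± 0.17 in TR2 and -0.10 ± 0.17 in TR3. A list of 14 genes beside the TNF and lymphotoxin genes, all of them within that stretch, had 13 tested and also 0 called, with or without the replicate block. Of these, BAG6, a chaperone gene, lay at 0.31 ± 0.11 in TR1 (adjusted p = 0.227), and NCR3, a receptor of natural killer cells, at -0.26 ± 0.15 in TR1 (0.408) and 0.27 ± 0.15 in TR2 (0.524).

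**Figure D3:**
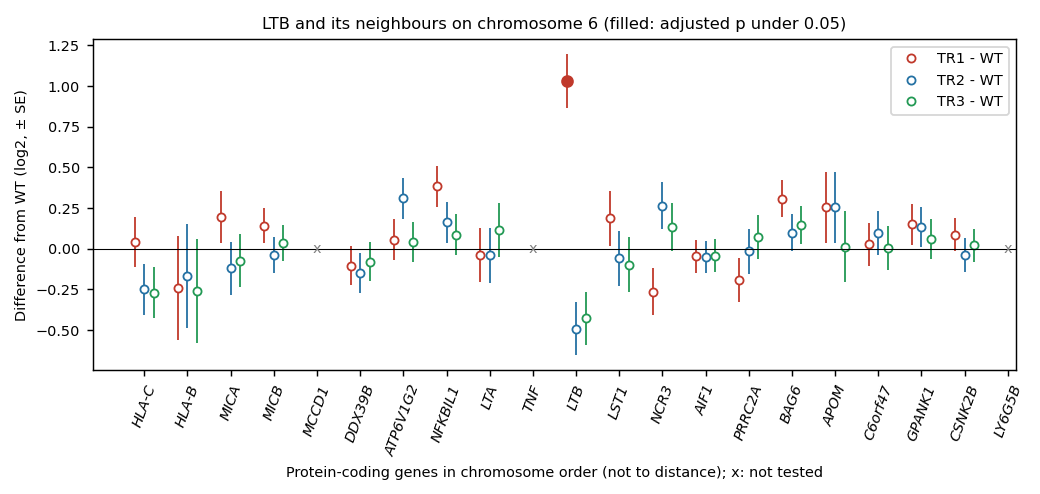
Log2 difference from WT (± SE) of LTB and the 20 protein-coding genes around it in chromosome order, not to distance, for TR1, TR2 and TR3. LTB in TR1 is the filled point at 1.03, the 17 tested neighbours lie between -0.27 and 0.39, and crosses mark MCCD1, TNF and LY6G5B, which were not tested.

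In the rest of the pathway, NFKBIA rose in TR1. NFKBIA encodes I-kappa-B alpha, which holds NF-kB in the cytoplasm and is itself made when NF-kB is active. The normalised log2 level of NFKBIA was 10.47 and 10.41 in TR1, 9.84 and 9.70 in TR2, 9.86 and 9.87 in TR3, and 9.84 and 10.02 in WT. Both TR1 arrays were above all others, a separation whose share over all probes is not given. NFKBIA differed from WT by 0.51 ± 0.11 in TR1 (adjusted p = 0.048), by -0.16 ± 0.11 in TR2 (0.621) and by -0.06 ± 0.11 in TR3 (0.896), and the clones differed among themselves (adjusted p = 0.0137, F test). The NFKBIA call in TR1 lay close to the threshold and passed in 3 of 15 alternative settings, with an adjusted p of up to 0.223. It was lost without each of the 8 arrays in turn.

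Among the brakes and the necroptosis genes as a list, 14 were listed, 13 were on the array and 10 were tested. NFKBIA was the 1 called in TR1, and 0 were called in TR2 and TR3, with 3, 2 and 0 at an unadjusted p under 0.05 (16.2%, 11.5% and 9.81% of all genes) and 1, 1 and 0 called with the replicate block. Over all genes, 9.26%, 3.99% and 2.33% were called with that block in TR1, TR2 and TR3. MLKL, the pore-forming effector of necroptosis, lay at -0.38 ± 0.16 in TR2 (adjusted p = 0.375), which passed with the replicate block (-0.37, adjusted p = 0.0481). ZC3H12A, an RNase that destroys cytokine mRNAs, lay at 0.37 ± 0.14 in TR1 (adjusted p = 0.232), and CYLD, a deubiquitinase of the receptor complex, at -0.39 ± 0.15 in TR2 (0.362). The median over the 10 genes was 0.07 in TR1, 0 in TR2 and -0.01 in TR3, and RIPK2, RIPK3 and TNFAIP8 were not tested.

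Of the adaptors and kinases of the receptor complex, 24 were listed, 23 were on the array and all 23 of those were tested. No clone gave a call, with 3, 4 and 3 genes at an unadjusted p under 0.05 in TR1, TR2 and TR3 by limma, where 16.2%, 11.5% and 9.81% of all genes reached that. With the replicate block the calls were 2, 1 and 1 of the 23, near the 9.26%, 3.99% and 2.33% of all genes. TRAF3IP2, the Act1 adaptor best known from interleukin-17 receptors, lay at -0.44 in TR1, -0.13 in TR2 and -0.57 in TR3 (SE 0.13 for each, adjusted p = 0.134, 0.753 and 0.19), and passed with the block in TR1 (-0.41, adjusted p = 0.0115) and TR3 (-0.53, adjusted p = 0.00536). RFFL, a ubiquitin ligase, lay at -0.40, -0.55 and -0.20 (each ± 0.16 SE), and passed with the block in TR1 (adjusted p = 0.0327) and TR2 (adjusted p = 0.00922). TRAF1 at -0.41 ± 0.16 and TRAF6 at -0.31 ± 0.11 had their values farthest from 0 in TR2 (adjusted p = 0.359 and 0.323). The TRAF1 probe was detected on 1 of 2 TR2 arrays.

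Proteins that shed TNF from the membrane or act on its RNA made up a list of 12, of which 11 were on the array and 10 were tested. RHBDF1, an inactive rhomboid related to the one that matures the TNF sheddase ADAM17, lay at 0.61 ± 0.13 in TR1 (adjusted p = 0.0485). Its probe was detected on 2 of 2 arrays in TR1, on 0 in TR2 and in TR3, and on 1 in WT, so it entered the test only through TR1, the line where it was high, and its p is no support for a difference. It kept its call against WT in 1 of 15 settings, and without background correction the difference was 0.29 (adjusted p = 0.121). No other gene of the list was called in TR1, and 0 were called in TR2 and TR3. At an unadjusted p under 0.05 the list gave 4, 2 and 2 genes, RHBDF1 among the 4, where 16.2%, 11.5% and 9.81% of all genes reached that. With the replicate block 4, 2 and 1 were called, where 9.26%, 3.99% and 2.33% of all genes were. Since the list holds 10 tested genes, these counts are given as a description.

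LITAF, a gene named for raising TNF expression after lipopolysaccharide, had the widest differences in that list. Its probe was detected on 1 of 2 TR1 arrays and on both arrays of TR2, TR3 and WT. Its normalised log2 level was 4.76 and 5.37 in TR1, 5.0 and 5.58 in TR2, 5.03 and 5.68 in TR3, and 5.95 and 6.55 in WT. All clone arrays were below both WT arrays, though the share of all probes separated in this way is not given. Array B was above array A in every line. The difference was -1.19 in TR1, -0.96 in TR2 and -0.90 in TR3 (SE 0.29 for each), and did not pass without the replicate block (adjusted p = 0.0759, 0.243 and 0.371). With the block, on the authors' values, it was -0.66, -0.55 and -0.52 and passed in all 3 clones (adjusted p = 2.16e-05, 0.000433 and 0.00148).

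KHSRP, which promotes decay of mRNAs with AU-rich elements such as that of TNF, lay at 0.54 in TR1, 0.52 in TR2 and 0.36 in TR3 (SE 0.14 for each, adjusted p = 0.0968, 0.189 and 0.453), and passed with the block in TR1 (0.52, adjusted p = 0.00248) and TR2 (0.50, adjusted p = 0.00711). The TR1 value of KHSRP was 0.76 without WT array A (adjusted p = 0.024) and 0.31 without WT array B (adjusted p = 0.322). ZFP36, or tristetraprolin, which acts on the same elements, lay at 0.30 ± 0.12 in TR1 (adjusted p = 0.241), with a call under the block (0.28, adjusted p = 0.0473).

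Most other ligands of the family did not pass the filter, with 13 listed, 12 on the array and 4 tested. None of the 4 was called in any clone, with 1, 2 and 1 at an unadjusted p under 0.05 (16.2%, 11.5% and 9.81% of all genes) and 1, 0 and 0 called with the replicate block (9.26%, 3.99% and 2.33% of all genes). CD70, the ligand of the costimulatory receptor CD27, lay at 0.56 ± 0.20 in TR1 (adjusted p = 0.216), and passed with the block (0.32, adjusted p = 0.0412). TNFSF9, or 4-1BB ligand, lay at -0.49 ± 0.13 in TR2 (adjusted p = 0.161), TNFSF4, or OX40 ligand, at -0.44 ± 0.13 in TR2 (0.236), and TNFSF8, or CD30 ligand, at 0.11 ± 0.12 in TR1 (0.705). TNFSF15, the ligand of TNFRSF25, did not pass the filter in any line.

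Of 19 other receptors of the family, all on the array, 7 were tested and 0 were called against WT in any clone, with 2, 0 and 1 at an unadjusted p under 0.05 and 2, 1 and 0 called with the replicate block, beside the same shares of all genes. Their median difference was -0.42 in TR1, -0.03 in TR2 and -0.07 in TR3. TNFRSF19, an orphan receptor known from epithelial and neural stem cells, was detected on both arrays of TR2, TR3 and WT and on neither array of TR1. The normalised log2 level of TNFRSF19 was 4.46 and 4.52 in TR1, 5.10 and 4.99 in TR2, 5.37 and 5.15 in TR3, and 4.85 and 5.10 in WT. By its mean signal, TNFRSF19 was at least 1.16-fold higher in TR2 than in TR1 and at least 1.34-fold higher in TR3 than in TR1. By limma, the full log2 differences were 0.56 (adjusted p = 0.0356) and 0.77 (adjusted p = 0.0174), and these p-values do not test the bounds. TR1 against WT did not pass (adjusted p = 0.0901). The probe entered the test only through the lines that detected it, where it was higher, and not through TR1, so its p is no support for a difference. These bounds set the mean of the line that detected it against the higher of the dim probe's own value and the lowest detected signal on each dim array. They carry no sampling error.

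CD27, a costimulatory receptor of T cells, lay at -0.40 ± 0.26 in TR1 (adjusted p = 0.494), -0.52 ± 0.26 in TR2 (0.492) and -0.18 ± 0.26 in TR3, and passed with the block in TR1 (-0.33, adjusted p = 0.0294) and TR2 (-0.43, adjusted p = 0.0106). TNFRSF14, the HVEM receptor, which LTA can also bind, lay at -0.54 ± 0.36 in TR1 (adjusted p = 0.5), and passed with the block (-0.38, adjusted p = 0.0409). TNFRSF4, or OX40, lay at -0.44 ± 0.25 in TR1 (adjusted p = 0.421), where 1 of 2 arrays detected its probe. The TNF receptor of lymphocytes, TNFRSF1B, did not pass the filter.

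Genes that TNF and lymphotoxin signalling can switch on were counted as a list as well, together with the NF-kB subunit genes. NFKBIA, which was called in TR1, was placed with the brakes and not in this list, so the count of calls depends on that placement. Of 22 listed, all were on the array and 13 were tested, and 0 were called in TR1, TR2 or TR3, where 2.36%, 0.646% and 0.318% of all genes were. At an unadjusted p under 0.05 there were 3, 0 and 0, where 16.2%, 11.5% and 9.81% of all genes had one, and 0 calls among 13 genes lies near the share over all genes. CCL5, a T cell chemokine, lay at 0.35 ± 0.13 in TR1 (adjusted p = 0.222), the NF-kB subunit gene REL at 0.30 ± 0.21 (0.52), the transcription factor gene IRF1 at 0.29 ± 0.12 (0.26), and CXCL10 at 0.32 ± 0.15 in TR2 (0.468). The CXCL10 probe was detected on 1 of 2 arrays in TR1 and in WT. The median difference over the list was -0.04, 0.02 and 0.03 in TR1, TR2 and TR3. The targets ICAM1, IL6, CXCL8 and CCL20 were among those that did not pass the filter.

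**Figure D4:**
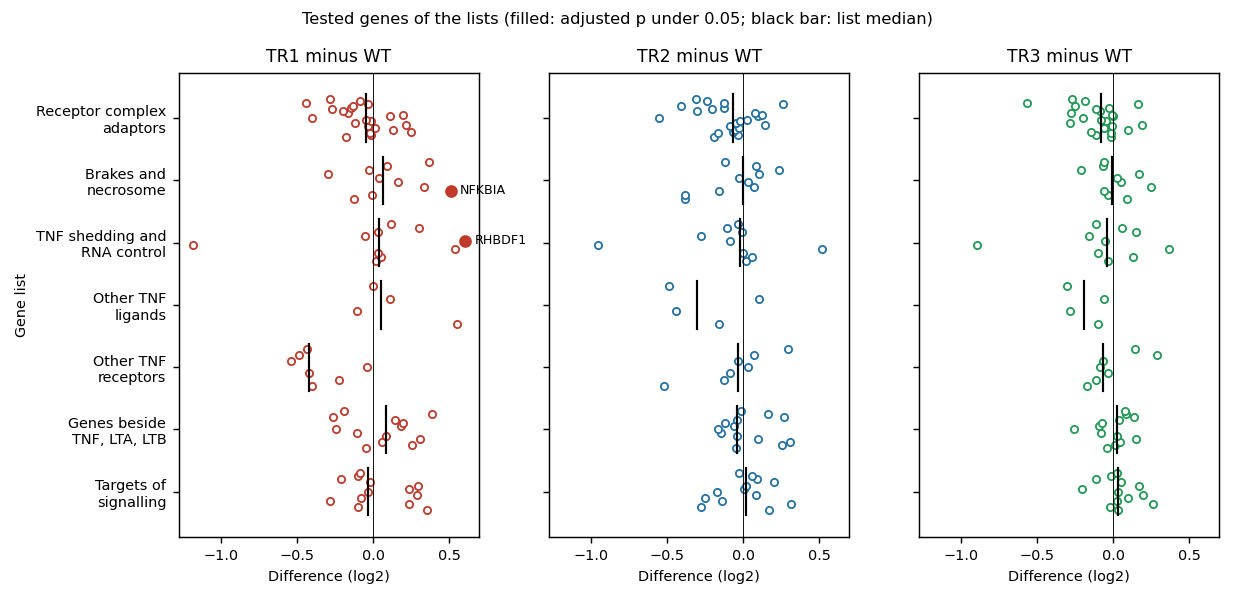
Log2 difference from WT of every tested gene in 7 lists around TNF and lymphotoxin, with 1 panel a clone, points for genes and a black bar for the list's median. NFKBIA at 0.51 and RHBDF1 at 0.61 in TR1 are the 2 filled points, and the point farthest left in each panel is LITAF.

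The genes whose pattern over the 8 arrays was most like that of LTB, by Pearson correlation among 10675 other genes and as a description, were C1GALT1 (r = 0.98), TMEM52 (0.97), CCDC106 (0.97), FERD3L (0.96) and MYLIP (0.96). C1GALT1, which extends mucin-type O-glycans, had a mean log2 level of 6.52 in TR1, 5.92 in TR2, 5.96 in TR3 and 6.07 in WT. MYLIP, the ubiquitin ligase that degrades the LDL receptor, had 7.99 in TR1, 6.37 in TR2, 6.50 in TR3 and 7.05 in WT. The correlation ignores size. FERD3L, a helix-loop-helix factor, ranged only between 5.31 in TR2 and 5.54 in TR1, whereas LTB and MYLIP spanned more than 1 log2 unit.

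**Figure D5:**
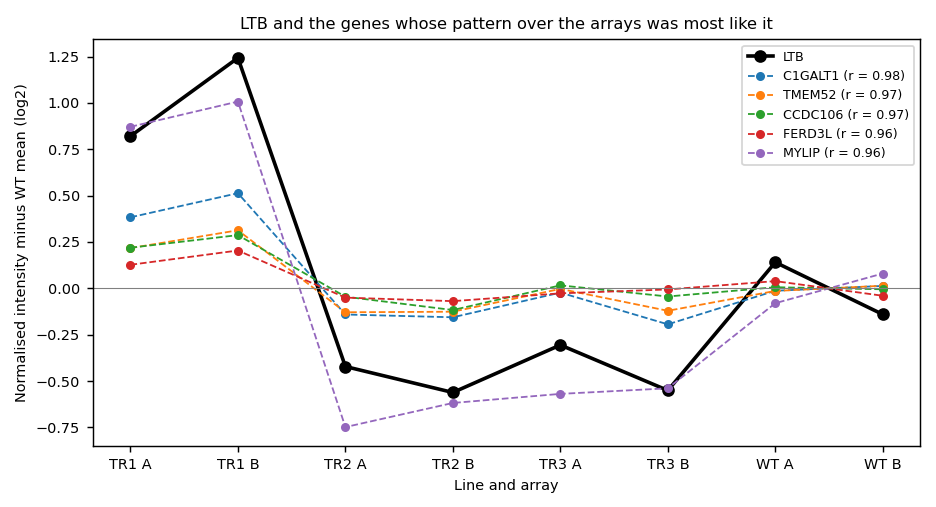
Normalised intensity minus the WT mean (log2) on the 8 arrays for LTB (black) and the 5 genes most correlated with it, with lines that only join the points of a gene. All 6 genes are highest on the TR1 arrays, and the LTB and MYLIP traces go farthest from 0.

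The arrays had 12408 to 13437 probes detected (55.9% to 60.6%) and median raw intensities between 68.08 and 82.98. The lowest medians were those of WT array B (68.08) and TR1 array B (71.41). RNA quality and control probes were not examined here. Of 13 T cell markers, 12 were detected on all 8 arrays and PTCRA, the pre-T cell receptor chain, on none. Their summed raw intensity ran from 17968 to 18130 in TR1, 17262 to 18514 in TR2, 19472 to 20622 in TR3 and 17826 to 20108 in WT. Of the B cell markers on the array, MS4A1 and CD22 were detected on no array and CD79A and CD79B on all. The myeloid markers CD14, CSF1R and ITGAM, the natural killer marker GNLY, and KRT8 and COL1A2 were detected on none, whereas CD68 and NKG7 were detected on all. The summed raw intensity of the 4 B cell markers ran from 471 to 475 in TR1, 552 to 639 in TR2, 577 to 655 in TR3 and 544 to 595 in WT. That of the 6 myeloid markers ran from 396 to 431 in TR1, 470 to 499 in TR2, 471 to 473 in TR3 and 408 to 474 in WT. The 4 natural killer markers ran from 580 to 692, 495 to 567, 582 to 632 and 485 to 613 in the same order, and the 6 of epithelium and fibroblasts from 457 to 509, 505 to 507, 504 to 522 and 424 to 486. Their part in the LTB difference was not tested.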

How the data were processed

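RNA of 8 samples, 2 each of TR1, TR2, TR3 and WT, was amplified, labelled with biotin and hybridised to Illumina HumanRef-8 BeadChips, per the labels. Per the file headers, the authors deposited 1 linear intensity and 1 detection p-value for every probe and array. A second deposited table holds processed intensities, also linear, with medians of 77.2 or 77.21 in all columns, whose scale and centring are not stated. Of tools, the submitters' processing notes name only limma, with no version. Which software summarised the beads, and whether background was subtracted, is not given in the sources used here. No label matched the letters in the raw column names to the replicate numbers of the processed ones. A match by the values themselves was not tried, so leaving the replicate out of the main fit was a choice. Of the columns, 0 were left without a line.

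With limma 3.58.1 in R 4.3.3, background was corrected by normexp (offset 16, background from detection p-values), and log2 values were quantile normalised. The filter on detection p kept 13130 probes. Of 22184 probes, 19715 had 1 gene symbol in the platform annotation, 0 had several and 2469 none, and 19695 symbols were updated by gene identifier to GRCh38.p14 names. Where a gene had several tested probes, the brightest on average stood for it. Differences came from a model of the 4 line means over all 8 arrays (lmFit, eBayes, 4 residual and 5.66 prior degrees of freedom), and a probe was called when its p, adjusted by Benjamini-Hochberg over all tested probes, was under 0.05. With 2 arrays a line, the number of arrays limits the precision. The SE and p for the mean of the clones rest on the spread between duplicate arrays, not between clones. The arrays of 2 lines can also lie apart without a call. Those of TR2 and TR1 did so at TNFRSF1A (unadjusted p = 0.295 by limma). The share of all probes that lay apart is not given.

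On the processed values, the change between replicates 1 and 2 correlated across probes for each of the 6 pairings of lines (r between 0.28 and 0.432), so samples with the same number were taken as pairs. A fit with the replicate number as a block was therefore made on the processed values, which alone carry the numbers. The main fit has no block and leaves this pairing out. More probes were called with the block, 1151 against 295 in TR1 against WT. The block fit changes the values as well as the design, and its result stands beside a result whose call it changed.

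The members and the gene lists were chosen with earlier results of these data known. The genes named from a list are those called in at least 1 clone against WT, filled up to 4 by the largest difference, and the 5 genes most correlated with each called member. Genes named only as not tested, as markers or as neighbours stand outside that rule. Alternatives were no background correction, the authors' values with and without the block, no filter, cyclic loess, array weights, only the arrays compared, the line as a random block for the mean of the clones, and each array left out in turn. No background correction and the authors' values without the block gave nearly the same fit. Each called 322 probes in TR1 against WT, so counts of settings passed take in that fit under both names.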

Additional observations from a re-analysis of the deposited data

Results flagged for a closer look

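The difference of LTB from WT was not the same in the clones, with an adjusted p of 0.000952 in the moderated F test over TR1, TR2 and TR3. It was 1.03 in TR1, -0.49 in TR2 and -0.43 in TR3 (log2). NFKBIA also differed among the clones (adjusted p = 0.0137), with 0.51 in TR1, -0.16 in TR2 and -0.06 in TR3, and the F test held in 12 of 15 alternative settings. RHBDF1 had an adjusted p of 0.0234 among the clones, held in 6 of 15 settings, but its probe was detected on 2 of 2 arrays in TR1 and on 0 in TR2 and TR3, so it entered the test only through the line where it was high and the p is no support for a difference. TNFRSF19 had an adjusted p of 0.0171 among the clones, held in 10 of 15 settings. Its probe was detected on neither TR1 array and entered the test only through the lines where it was higher, so this p too is no support for a difference. Lines of 2 arrays are too small for a test of single arrays against the rest.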

How the results depend on the processing

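The 7 tested probes of the set were recomputed in 735 fits of a difference. No call changed sign, 3 calls were lost and 0 were gained, and 35 uncalled values changed sign. The lost calls are those of LTB in TR1 against WT, so that 0 in place of 1 of the tested genes was called with no filter on dim probes, and between 0 and 1 when single arrays were left out (0 without array B of TR1 and without array B of WT). LTB in TR1 ranged from 0.68 to 1.24 over 15 settings and passed in 12. With the replicate block it was 0.68 ± 0.10 (adjusted p = 0.000177), and the block changed no call among the probes of the set.

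Counts over all probes moved more. In TR1, TR2 and TR3 against WT and for the mean of the clones, 295, 83, 39 and 52 probes were called, against 1151, 510, 296 and 394 with the replicate block and 169, 46, 17 and 15 with no filter. In TR2 and TR3 against TR1, TR3 against TR2 and among the clones, 616, 202, 103 and 487 were called, against 1481, 972, 504 and 1675 with the block. TR3 against TR1 gave 108 with no filter and 336 with array weights. The mean of the clones gave 19 with array weights and 6 with the line as a random block. With only the arrays compared, TR1 and TR3 against WT gave 166 and 20. Leaving out single arrays gave 111 to 260, 28 to 76, 11 to 32 and 7 to 31 probes for the comparisons with WT in the order above, and 248 to 637, 64 to 201, 41 to 104 and 251 to 506 for those among clones. The causes were not tested. Signal near background limits LTA, RHBDF1 and TNFRSF19, and leaves TNF and LTBR without a level. It also limits LITAF and TNFRSF4 in TR1, TRAF1 in TR2, and CXCL10 in TR1 and WT.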
